A study of Rattus norvegicus with 10 samples.

Results

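MicroRNA-210 and microRNA-320 are small RNAs tied to low oxygen and to ischaemia followed by reperfusion in the heart, and both arms of each were measured in the left ventricle of rats infused with dexmedetomidine (DEX) or saline. The members were the 4 of 761 miRNA probes whose printed name was rno-miR-210-3p (MIMAT0000881), rno-miR-210-5p (MIMAT0017156), rno-miR-320-3p (MIMAT0000903) or rno-miR-320-5p (MIMAT0017168). Both groups were male Wistar rats of 250 to 350 g. The Control group (n = 5) received saline and the DEX group (n = 5) received DEX, a sedative agonist of alpha2 adrenergic receptors, for 30 min as a loading and then a maintenance infusion with a short saline washout. No heart in this comparison was made ischaemic, so the values describe myocardium after the infusion without ischaemia. Anaesthesia with sevoflurane and butorphanol is described for the study's ischaemia model and was not stated separately for these rats. RNA came from the anterior wall of the left ventricle and holds all its cell types, so that fewer cells of a type and less RNA per cell cannot be told apart. Age was not given.

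A miRNA is cut from a folded precursor (hairpin), whose 2 sides give the 5p and the 3p arm, and it represses messenger RNAs that pair with its seed, bases 2 to 8. miR-210-3p is the arm known as a hypoxia miRNA. Hypoxia-inducible factor raises its transcription, and it represses iron-sulphur cluster assembly proteins and so lowers mitochondrial respiration. miR-320-3p is known from the heart as a repressor of the heat shock protein Hsp20, and it has been tied to injury after ischaemia and reperfusion. The 5p arms come from the same precursors and are less studied.

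The sequences of the miR-210 arms and their hairpin are shown because they set what the probes can tell apart. They are the RefSeq entries on build GRCr8, written 5′ to 3′, with the seed in capitals in the mature miRNAs and both arms in capitals in the hairpin. RefSeq sequences were matched for 2 of the 4 members.
rno-miR-210-5p: aGCCACUGcccacagcacacug
rno-miR-210-3p: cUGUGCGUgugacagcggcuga
rno-miR-3574: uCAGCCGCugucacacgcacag
Mir210 hairpin: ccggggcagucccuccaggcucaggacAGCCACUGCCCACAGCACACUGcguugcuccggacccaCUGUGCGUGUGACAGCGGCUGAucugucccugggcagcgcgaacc

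Mir210 lay on the minus strand of chromosome 1 at chr1:205755923-205756032. The 3p arm was at chr1:205755946-205755967 and the 5p arm at chr1:205755984-205756005. The hairpin lay inside the interval of the long non-coding RNA gene LOC102553043 (chr1:205754978-205763340), and whether in an exon or an intron was not given in the sources used here. A second miRNA gene, Mir3574, covered the same place on the plus strand (chr1:205755917-205756034). Its mature rno-miR-3574 was the exact reverse complement of miR-210-3p over 22 of 22 bases, which is why it is printed above.

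In the fold computed from the hairpin, 16 of the 22 bases of the 3p arm paired with bases of the 5p arm, 6 of the 7 seed bases among them. The loop between the arms was 16 bases long. Neither seed was shared by any other of 693 RefSeq rat mature miRNAs (0 for each arm). The closest other miRNA matched 13 of 22 positions of each arm, rno-miR-330-5p for 3p and rno-miR-3574 for 5p. Both arms had 63.6% G and C, against a median of 47.8% over RefSeq rat mature miRNAs.

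Arrays were one-colour chips with 1 spot per miRNA, and their names placed them on 3 slides. Slide 1 held Control 1 to 4, slide 2 held Control 5 and DEX 1 to 3, and slide 3 held DEX 4 and 5, so that slide and group were largely confounded. The number of detected miRNAs was 483 to 533 on the Control arrays and 483 to 514 on the DEX arrays. DEX 1 was the dimmest array, with a median of 17.3 over the blank spots against 35.4 to 53.5 on the other 9. The presence of muscle was checked with miRNAs of heart muscle, and all 6 of 6 (miR-499-5p, miR-208b-3p and miR-208a-3p of myosin gene introns, and miR-133b-3p, miR-133a-3p and miR-1-3p) were detected on every array. These 6 miRNAs do not tell the left ventricle from other parts of the heart. In normalized signal, their sum was 32202 to 46018 in the Control group and 31097 to 45001 in the DEX group. Markers of other cells were also detected on every array, 7 of 7 for blood, 2 of 2 for endothelium and 2 of 2 for smooth muscle. Their sums overlapped between Control and DEX, at 1352 to 1829 and 1181 to 2031 for blood, 4360 to 5783 and 4370 to 6739 for endothelium, and 2433 to 3711 and 2654 to 3857 for smooth muscle. Within the blood list the red cell miRNAs rno-miR-451-5p (543 in Control, 360.3 in DEX) and rno-miR-144-3p (57.1 and 33.8) had lower DEX means. The DEX mean of rno-miR-486, of the same list, was not lower (141.9 and 143.8). The leukocyte miRNAs rno-miR-150-5p (537 and 621) and rno-miR-223-3p (79.9 and 101) had higher DEX means. These blood means were taken on the log2 scale and turned back to signal, unlike the arithmetic means given below for the members. None of the 7 passed the test at an unadjusted p under 0.05. The part of these cells in the members' values was not tested.

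Both arms of miR-210 and both arms of miR-320 were detected on all 10 arrays, and none of the 4 differed between DEX and Control beyond the spread between hearts. Values are normalized signals, the spot intensity over the blank spots scaled so that the median detected miRNA of an array is 25. The 3 brighter probes stood 21.9 to 53.9 standard deviations (SD) of the blank spots above the blank mean. rno-miR-320-5p, the dimmest of the 4, stood 4.99 to 11.3 blank SD above it, lowest on DEX 4. Signals of different probes are not compared as abundances, since probes differ in how they bind.

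rno-miR-210-3p, the hypoxia arm, gave normalized signals of 89.4, 89.1, 71.1, 74.5 and 115 on Control 1 to 5. On DEX 1 to 5 it gave 92.1, 86.8, 80.1, 76.4 and 95.2. All 5 DEX values lay inside the Control range, whose top was Control 5. The Control mean was 87.8 ± 17.3 and the DEX mean 86.1 ± 7.90 (SD, n = 5 each). The log2 difference, DEX minus Control, was -0.01 with a standard error (SE) of 0.15 (limma, adjusted p = 0.985). Its 95% confidence interval of -0.35 to 0.32 runs from 1.27-fold lower to 1.25-fold higher in DEX. The two-sided exact permutation test of the same values gave p = 0.937, where 5 arrays against 5 cannot go below 0.00794.

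rno-miR-210-5p, the opposite arm, gave normalized signals of 80.6, 82.1, 90.1, 85.0 and 83.7 on Control 1 to 5 and of 82.2, 96.0, 81.3, 69.4 and 70.4 on DEX 1 to 5. The Control arrays were close together, and the 2 lowest of the 10 values were DEX 4 and DEX 5, the arrays of slide 3. Only 2 of 5 DEX values lay inside the Control range, while DEX 2 lay above it. The means were 84.3 ± 3.65 (SD, n = 5) and 79.9 ± 10.8 (SD, n = 5). The log2 difference was -0.09 (SE 0.13, 95% confidence interval -0.37 to 0.20, limma, adjusted p = 0.914), and the two-sided exact permutation p was 0.349. Leaving out slide 3 turned its sign, to 0.03, and since slide 3 held no Control array its slide and the treatment cannot be told apart.

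rno-miR-320-3p, the arm tied to Hsp20, gave normalized signals of 55.6, 56.5, 45.1, 45.3 and 64.5 on Control 1 to 5 and of 59.7, 50.03, 56.7, 51.7 and 66.7 on DEX 1 to 5. The highest value of each group was Control 5 and DEX 5, and 4 of 5 DEX values lay inside the Control range. The means were 53.4 ± 8.26 (SD, n = 5) and 57.0 ± 6.68 (SD, n = 5). The log2 difference was 0.10 (SE 0.15, 95% confidence interval -0.22 to 0.42, limma, adjusted p = 0.914), and the two-sided exact permutation p was 0.413. Without scaling between arrays the sign turned, to -0.11, and the median of all tested miRNAs then moved from 0.04 to -0.16.

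rno-miR-320-5p gave normalized signals of 20.1, 21.7, 23.3, 16.1 and 16.8 on Control 1 to 5 and of 18.2, 20.3, 17.6, 11.4 and 18.4 on DEX 1 to 5. DEX 4 stood apart as the lowest of the 10 arrays, and the other 4 DEX values lay inside the Control range. The means were 19.6 ± 3.10 (SD, n = 5) and 17.2 ± 3.39 (SD, n = 5). The log2 difference was -0.20 (SE 0.18, 95% confidence interval -0.59 to 0.19, limma, adjusted p = 0.905), and the two-sided exact permutation p was 0.333. Its interval was the widest of the 4 and reached 1.504-fold lower in DEX. Without DEX 4 the log2 difference was -0.06.

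**Figure D1:**
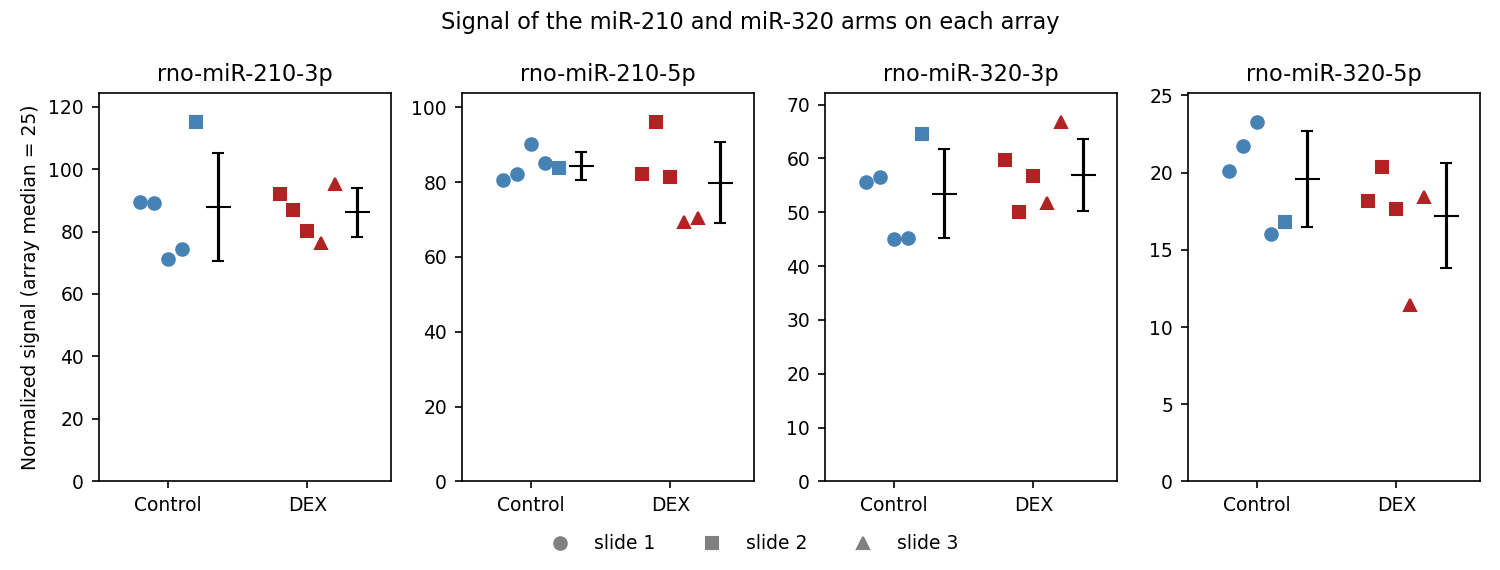
Normalized signal (vertical axis, array median of detected miRNAs at 25, starting at 0) of the 4 miRNAs on each array, by group, with the symbol giving the slide. The black bar is the mean and its whiskers the SD (n = 5 arrays in each group). The groups overlap in every panel, with Control 5 at 115 for miR-210-3p and DEX 4 at 11.4 for miR-320-5p farthest from the rest.

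The exact permutation p values, adjusted over the 501 miRNAs they could be computed for, were 0.893 or above for all 4 members. Over all 503 miRNAs tested (those detected on at least 5 arrays), limma called 0 at an adjusted p under 0.05, which is 0.0%, and 0 of the 4 members. At an unadjusted p under 0.05 it called 15 of 503 (2.98%) and 0 of 4 members. The methods' t-test with at least 1.5-fold called 8 of 503 (1.59%) and 0 of 4 members. It was run on the log2 values used here and not on the authors' scores. The groups did not overlap for 3 of 503 miRNAs (0.596%) and for 0 of 4 members. Ranked by limma p from the smallest, rno-miR-320-5p was at place 146 of 503, rno-miR-320-3p at 275, rno-miR-210-5p at 277 and rno-miR-210-3p at 478. The median log2 difference was -0.05 over the members and 0.04 over all tested miRNAs, of which the middle portion between the quartiles ran from -0.12 to 0.15.

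**Figure D2:**
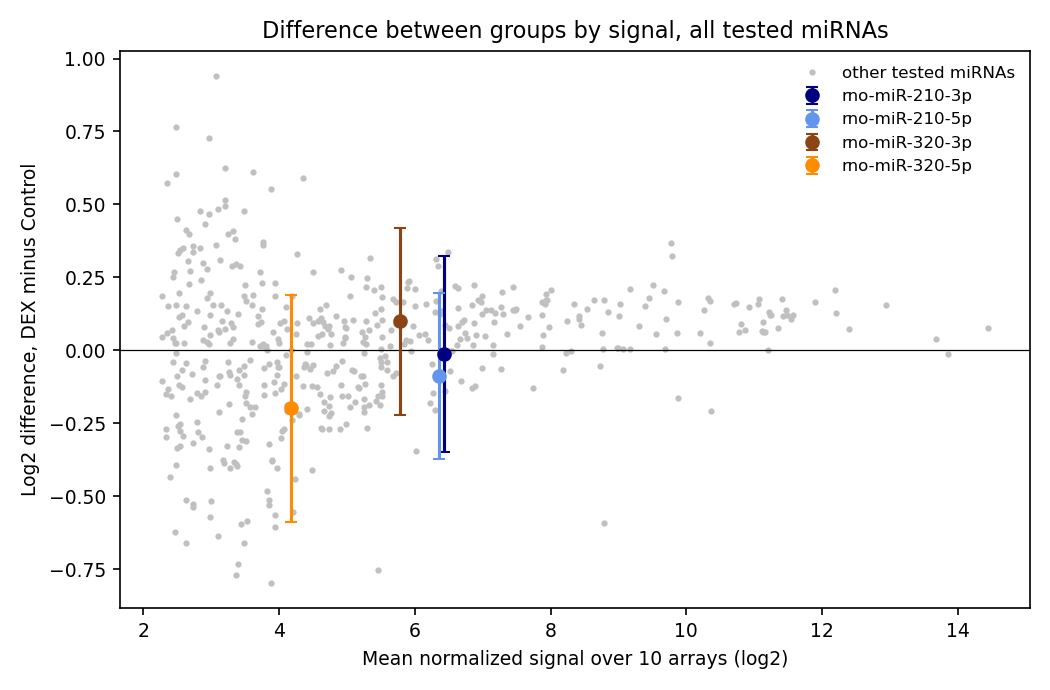
Log2 difference, DEX minus Control (vertical axis), against the mean log2 normalized signal over 10 arrays (horizontal axis) for the 503 tested miRNAs. Grey points are the other tested miRNAs, and coloured points with bars are the members with their 95% confidence intervals, all of which include 0.

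The precision differed between the members. The SD of rno-miR-210-5p between arrays of a group was 0.14 on the log2 scale, and 3.98% of tested miRNAs had a smaller one. For rno-miR-210-3p and rno-miR-320-3p it was 0.22 and 0.20, near the median of 0.22 over the 168 brightest tested miRNAs. For rno-miR-320-5p it was 0.28, against a median of 0.29 over the 167 miRNAs of middle signal. The raw signal of all 4 over the blank spots was lowest on DEX 1, at 63.6, 56.8, 41.2 and 12.5 for miR-210-3p, miR-210-5p, miR-320-3p and miR-320-5p. The other 9 arrays gave at least 144.3, 119, 89.8 and 23.8 in the same order. After scaling, DEX 1 lay inside the Control range for all 4.

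Within slide 2, the only slide with both groups, Control 5 could be set beside the mean of DEX 1 to 3. In normalized signal this was 115 against 86.3 ± 6.03 (SD, n = 3) for rno-miR-210-3p and 64.5 against 55.5 ± 4.95 (SD, n = 3) for rno-miR-320-3p. Both 3p arms were thus brighter on the 1 Control array of that slide than on each DEX array beside it. For the 5p arms it was 83.7 against 86.5 ± 8.25 (SD, n = 3) for rno-miR-210-5p and 16.8 against 18.7 ± 1.44 (SD, n = 3) for rno-miR-320-5p. The log2 differences within slide 2 were -0.42 for miR-210-3p, 0.04 for miR-210-5p, -0.22 for miR-320-3p and 0.15 for miR-320-5p. The median of all tested miRNAs in the same slide was -0.19. A fit with slide as a term gave these same values, since only slide 2 informs it, with limma adjusted p values of 0.897 or above. Over the other slides, Control 1 to 4 averaged 81.0 ± 9.63, 84.5 ± 4.19, 50.6 ± 6.30 and 20.3 ± 3.10 (SD, n = 4), and DEX 4 and 5 averaged 85.8, 69.9, 59.2 and 14.9, for miR-210-3p, miR-210-5p, miR-320-3p and miR-320-5p.

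**Figure D3:**
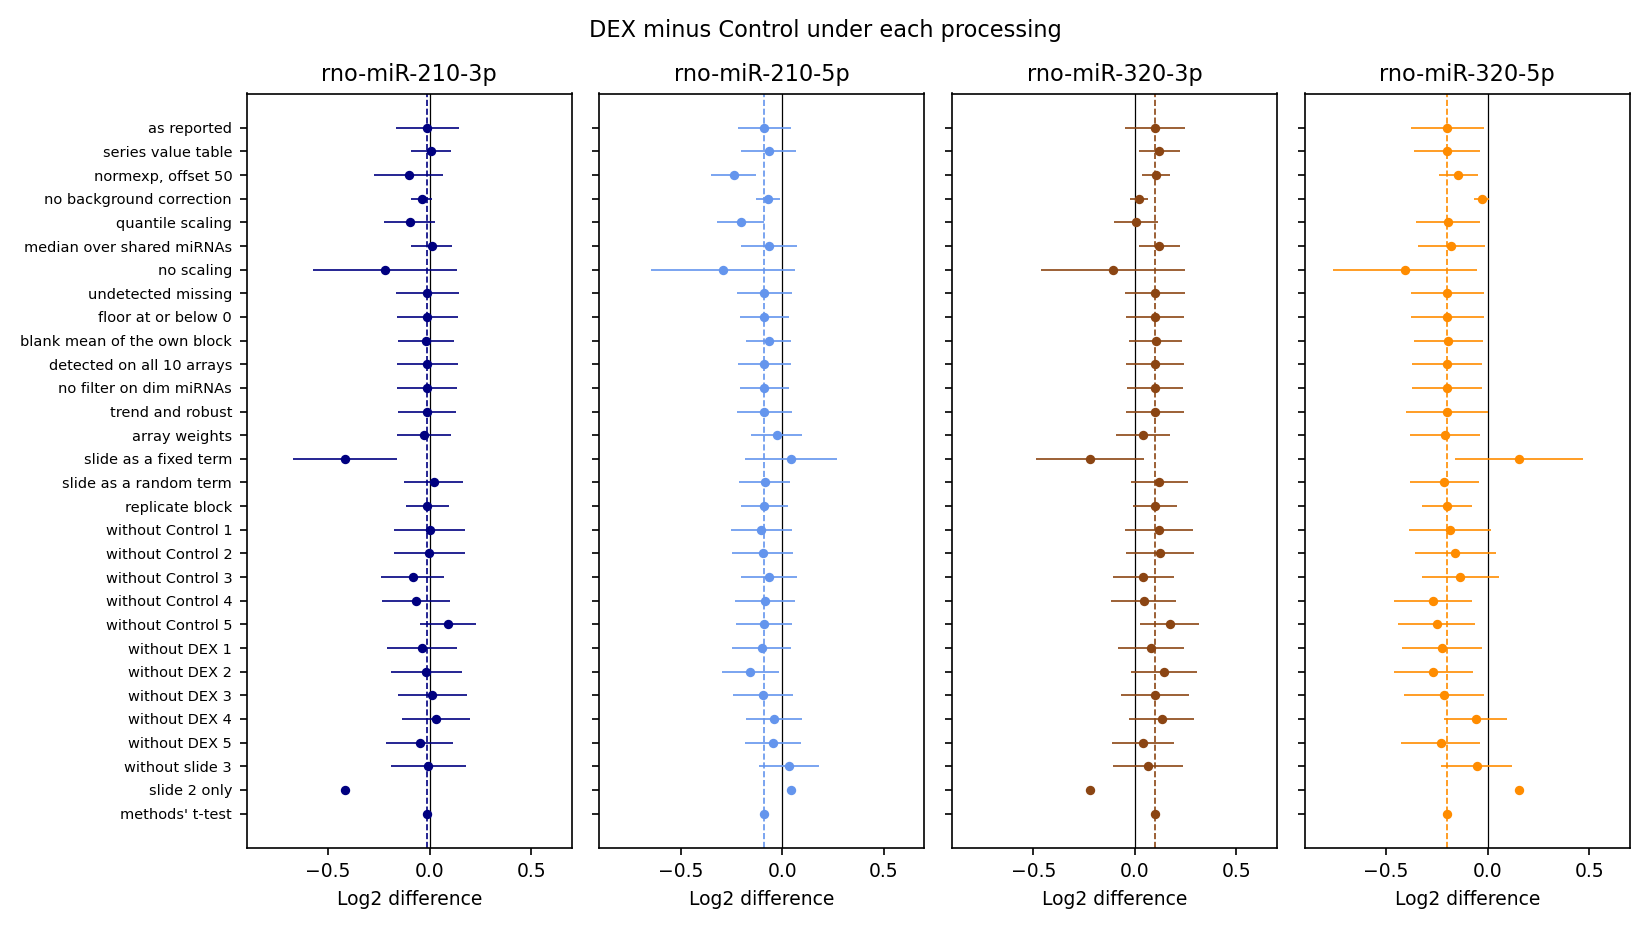
Log2 difference, DEX minus Control (horizontal axis), of each miRNA under every way of processing the arrays (rows), with bars for the SE. The dashed line marks the value as reported and the solid line 0. The 2 rows without bars are the slide 2 values, which have no test, and the methods' t-test. The points with slide as a fixed term and in slide 2 alone stand farthest to the left for miR-210-3p, at -0.42.

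The contrast between the arms of a precursor asks whether the balance of 3p and 5p shifted with DEX. It is the log2 signal of the 3p probe minus that of the 5p probe on the same array, where scaling cancels. Its level depends on the probes, and only its change between arrays is read. For miR-210 it was 0.15, 0.12, -0.34, -0.19 and 0.46 on Control 1 to 5, and 0.16, -0.14, -0.02, 0.14 and 0.43 on DEX 1 to 5. The groups overlapped, and the means of 0.04 ± 0.31 and 0.11 ± 0.22 (SD, n = 5 each) differed by 0.08 (two-sided exact permutation test, p = 0.611, adjusted over both families 0.611).

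For miR-320 the contrast was 1.47, 1.38, 0.96, 1.496 and 1.94 on Control 1 to 5, and 1.72, 1.30, 1.69, 2.18 and 1.86 on DEX 1 to 5. The highest value was DEX 4, the array on which the 5p arm was faintest, and the lowest was Control 3. The means of 1.45 ± 0.35 and 1.75 ± 0.32 (SD, n = 5 each) differed by 0.30, which was within the spread between arrays (two-sided exact permutation test, p = 0.190, adjusted over both families 0.381). In slide 2 alone the differences had the opposite sign, -0.46 for miR-210 and -0.38 for miR-320, with 1 Control array to compare.

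**Figure D4:**
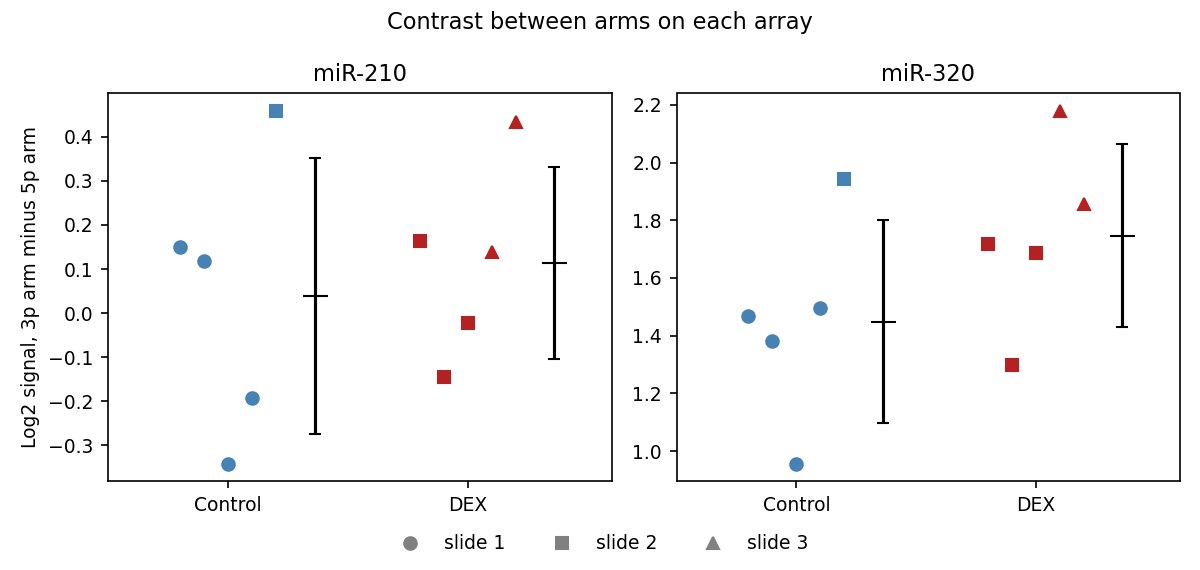
Log2 signal of the 3p arm minus the 5p arm (vertical axis, not starting at 0) on each array, by group, for miR-210 and miR-320, with the symbol giving the slide. The black bar is the mean and its whiskers the SD (n = 5 arrays in each group). The groups overlap in both panels, and Control 5 is the highest Control array in each, at 0.46 and 1.94.

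The members were compared with each other across the 10 arrays on the log2 scale, 6 pairs in all. The 3p arms of the 2 precursors moved together, with Pearson's r = 0.84 (permutation p = 0.00188, adjusted 0.0113) and Spearman's rho = 0.88 (permutation p = 0.00167, adjusted 0.01002). Without Control 3 and Control 5, the 2 arrays farthest from the median of miR-210-3p, r was 0.79, and with the group means removed it was 0.89. Removed in the same way, the median r with 404 other miRNAs was 0.54 for each of these 2 arms. The permutation p is set against no relation at all and so does not single out this pair. The relation depended on the scaling. When arrays were scaled over the miRNAs detected on all of them, r fell to 0.57 (permutation p = 0.0847, adjusted 0.228) and rho to 0.64 (permutation p = 0.0557, adjusted 0.110). The signal of miR-210-3p also moved with the number of miRNAs detected on an array (r = 0.89), as did that of miR-320-3p (r = 0.71), and the part of this number in the relation was not tested. For the 5p arms those values were -0.01 for miR-210-5p and 0.36 for miR-320-5p. No slide held 6 arrays, so no value within a slide was computed.

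No relation between the arms of a precursor passed the test. For miR-210, r was -0.09 (permutation p = 0.805) and rho -0.26 (permutation p = 0.471). For miR-320, r was -0.05 (permutation p = 0.899) and rho -0.20 (permutation p = 0.584). Over the 5 pairs other than the 3p arms, r lay between -0.48 and 0.62, with adjusted permutation p values of 0.183 or above for r and 0.495 or above for rho. With scaling over shared miRNAs these pairs moved too, and none passed after adjustment over the 6 pairs. The 5p arms went from r = 0.62 to 0.58 and from rho = 0.36 to 0.79 (permutation p = 0.00862, adjusted 0.0517). miR-210-5p with miR-320-3p went from r = -0.48 to -0.53 and from rho = -0.48 to -0.68 (permutation p = 0.0345, adjusted 0.103). The miR-320 arms came to r = -0.48 and rho = -0.60 (permutation p = 0.0733 for rho, adjusted 0.110), and the miR-210 arms to r = -0.30 and rho = -0.24 (permutation p = 0.515 for rho).

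The miRNAs most like each member were found by Pearson's r over 10 arrays, group means removed, among 404 others detected on every array. All values come from the same 10 libraries and share their scaling, so they are descriptions. For rno-miR-210-3p they were rno-miR-221-3p (r = 0.98), rno-miR-30e-3p (r = 0.98) and rno-let-7c-5p (r = 0.97), against a median of 0.54 over all 404. These stayed at 0.95, 0.92 and 0.84 with scaling over shared miRNAs. For rno-miR-320-3p they were rno-miR-501-3p, rno-miR-347 and rno-miR-301a-3p (r = 0.91 each, median 0.54), and these fell to 0.52, 0.77 and 0.55 with that scaling. For rno-miR-210-5p they were rno-miR-3065-3p (r = 0.74), rno-miR-193b-5p (r = 0.70) and rno-miR-3562 (r = 0.70), against a median of -0.17. For rno-miR-320-5p they were rno-miR-337-5p (r = 0.90), rno-miR-666-5p (r = 0.89) and rno-miR-3594-5p (r = 0.85), against a median of 0.09.

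rno-miR-3574, the reverse complement of miR-210-3p at the same place, was named for its position and not by its values. It was detected on all 10 arrays, with normalized signals of 13.8, 19.0, 17.2, 10.2 and 12.2 on Control 1 to 5 and of 15.5, 12.7, 9.72, 13.5 and 21.7 on DEX 1 to 5. The groups overlapped, with means of 14.5 ± 3.59 and 14.6 ± 4.46 (SD, n = 5 each). The log2 difference was 0.0005 (SE 0.23, 95% confidence interval -0.49 to 0.49, limma, adjusted p = 0.9997). The probes for both strands of this place on chromosome 1 thus had signal over the blank spots, and neither differed between the groups beyond its spread. Whether the dim rno-miR-3574 signal came from its own RNA was not tested.

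Other miRNAs known to respond to low oxygen were taken as a list of 16, such as the miR-23, miR-24 and miR-27 families, miR-26, miR-103, miR-107 and miR-181. All 16 of 16 were tested and detected on every array. At an adjusted p under 0.05 limma called 0 of 16, and 0 of 16 at an unadjusted p under 0.05. Of 28 other fits, 4 gave unadjusted calls, 2 at most: rno-miR-26b-5p with the series value table and with shared scaling, rno-miR-155-5p without slide 3, and rno-miR-155-5p and rno-miR-21-5p without DEX 4. The 16 values were all above 0, with a median log2 difference of 0.13 beside 0.04 over all tested miRNAs, but the median was -0.08 without scaling between arrays, 0.0096 with quantile scaling and -0.28 in slide 2. Over all tested miRNAs 298 of 503 (59.2%) were above 0, a share not matched to the list for brightness. All of the list but rno-miR-155-5p had group means above the median to which arrays were scaled. Among bright miRNAs outside the list many were also above 0 and some below. Whether the list differs from miRNAs of like signal was not tested. Leaving out 1 array moved the list's median from 0.03 (without Control 3) to 0.22 (without Control 5). The largest values belonged to rno-miR-155-5p, a miRNA of activated immune cells, at 0.51 (SE 0.29), and rno-miR-21-5p, which is high in fibroblasts, at 0.37 (SE 0.23). The smallest were rno-miR-27a-3p at 0.06 (SE 0.15) and rno-miR-181c-5p, which acts in mitochondria, at 0.09 (SE 0.17). The limma adjusted p was 0.905 or above for each of the 16.

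A list of 22 miRNAs known from ischaemia and reperfusion of the heart shared 5 members with the hypoxia list. All 22 of 22 were tested and detected on every array, and limma called 0 of 22 at an adjusted and 0 of 22 at an unadjusted p under 0.05. Of 28 other fits, 11 gave unadjusted calls, 2 at most, and these were rno-miR-144-3p, rno-miR-451-5p, rno-miR-155-5p or rno-miR-21-5p. The lowest unadjusted p was 0.00681, without scaling. Of the 22, 17 had values above 0 and 5 below, where 59.2% of all tested miRNAs were above 0. That share is again not matched for brightness, since all of the 22 but rno-miR-155-5p had group means above the scaling median. Whether this list differs from miRNAs of like signal was not tested either. The median log2 difference of 0.09 became -0.11 without scaling, -0.03 with quantile scaling and -0.17 in slide 2. The medians of all tested miRNAs under these were -0.16, -0.05 and -0.19. Leaving out 1 array moved it from 0.03 (without Control 3) to 0.16 (without Control 5). The 2 highest were again rno-miR-155-5p and rno-miR-21-5p. The 2 lowest values were held by rno-miR-144-3p at -0.75 (SE 0.36, unadjusted p = 0.0575 by limma) and by rno-miR-451-5p at -0.59 (SE 0.33), both red blood cell miRNAs cut from one transcript. The limma adjusted p was 0.905 or above for each of the 22.

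**Figure D5:**
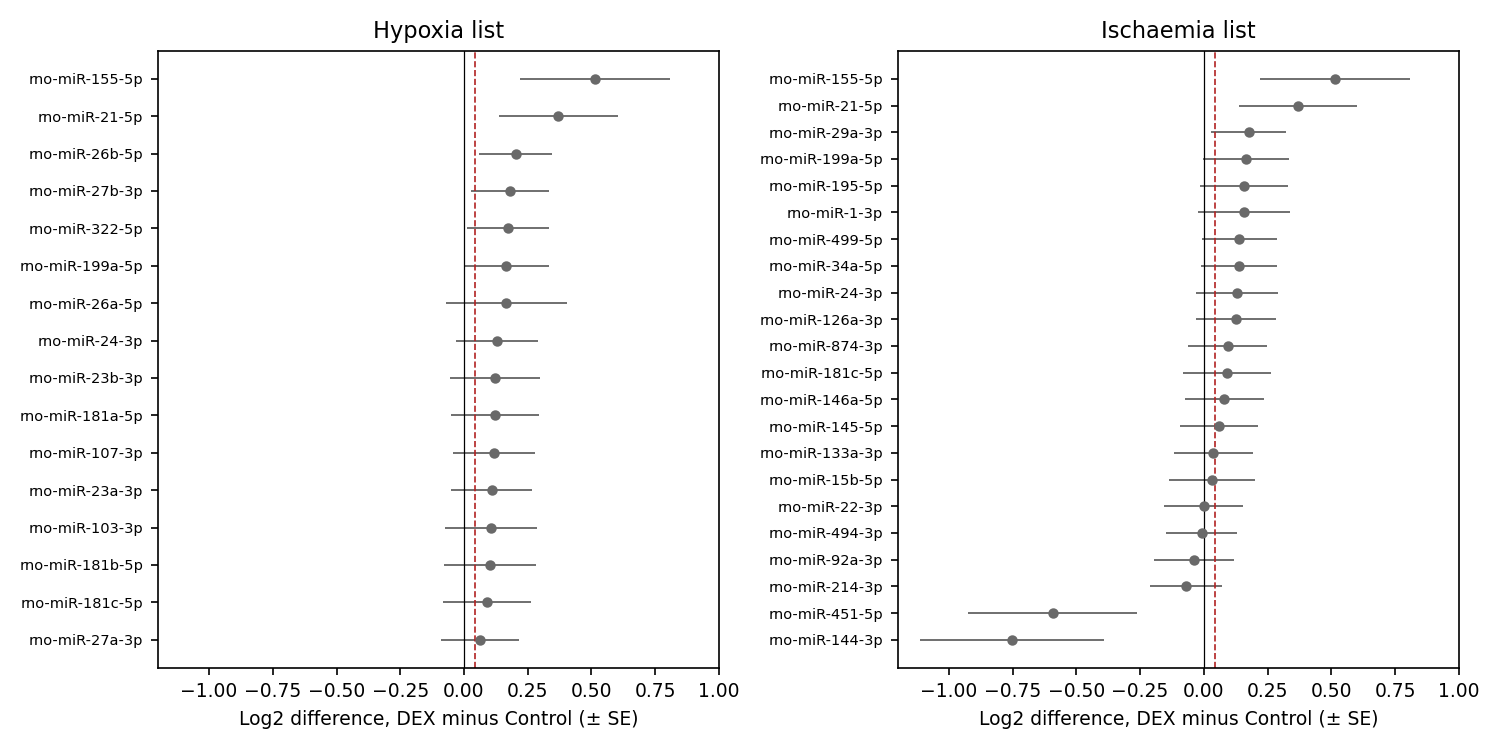
Log2 difference, DEX minus Control (horizontal axis), of the 16 miRNAs of the hypoxia list (left) and the 22 of the ischaemia list (right), with bars for the SE (5 arrays in each group). The solid line marks 0 and the dashed line the median of all tested miRNAs, 0.04. The hypoxia list lies between 0.06 and 0.51, and the ischaemia list between -0.75 for miR-144-3p and 0.51 for miR-155-5p.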

How the data were processed

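Total RNA from the left ventricle was labelled with Cy5 and hybridized to 3D-Gene rat miRNA chips. Per the file headers, the deposited scanner values are median spot intensities combined over 3 gain settings and not corrected for background. The second deposited table holds the authors' processed score, the spot over the blank mean scaled per array and rounded. This rule, scaled by the median over the miRNAs detected on every array, gave 99.8% of 5038 scores within 0.51. The signals reported here were scaled over each array's own detected miRNAs and so differ from those scores in scaling. Software versions and the miRBase release are not given in the sources used here. The number of arrays limits the precision.

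The mean of 1664 blank spots (trimmed by 5% at each end) was subtracted, the median detected miRNA of every array was brought to 25, anything undetected took the lowest value detected there, and log2 was taken. A spot counted as detected where the table holds a score, and a rule of more than 2 blank SD above the blank mean with no bad-spot mark differed from this in 2 of 7610 calls. Differences were fitted in limma 3.58.1 (R 4.3.3; eBayes, two-sided, Benjamini-Hochberg, threshold 0.05) for the 503 miRNAs with a score on 5 or more arrays, after the code had been tested on simulated data. Exact permutation tests used all 252 arrangements. Hairpins were folded with RNAfold 2.7.2. Groups and replicate numbers came from the labels, and slides from the array names. Named miRNAs were the 4 members, the 2 highest and 2 lowest of each list and the 3 most like each member. Outside this rule, rno-miR-3574 was named for its genome position, rno-miR-330-5p as the closest sequence and the cell type markers as checks. The members and lists were chosen with earlier results of these data known. Alternatives covered background, scaling, filter, model, slide, replicate block and leaving out arrays. Blank means by block and leaving out slide 3 were added after seeing the data.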

Additional observations from a re-analysis of the deposited data

Results flagged for a closer look

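The DEX 4 value of rno-miR-320-5p, a normalized signal of 11.4, lay far below the other 4 DEX arrays. On the log2 scale, used for this check, its gap to the nearest of them was 0.752 of the range of the group, above Dixon's critical value of 0.71 for 5 arrays. On the linear scale of the normalized signal it was 0.696, below that value. In all, 12 groups of arrays were examined and 1 stood out, where chance gives 0.6. On DEX 4 this spot was 4.99 blank SD above the blank mean, the smallest margin of any member on any array, and the part of this margin in the value was not tested.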

How the results depend on the processing

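No alternative brought a member to an adjusted p under 0.05 (lowest 0.62) or to an unadjusted p under 0.05 (lowest 0.0589, for miR-210-5p with normexp). Of 29 alternatives, 21, 26, 26 and 27 kept the sign and the side of the threshold for miR-210-3p, miR-210-5p, miR-320-3p and miR-320-5p. The log2 difference of miR-210-3p, close to 0, turned positive with the series value table (0.0065), scaling over shared miRNAs (0.0096) and slide as a random term (0.019), and it was -0.42 in slide 2. Scaling over shared miRNAs, the scaling that fits the authors' scores, gave SEs of 0.10 for miR-210-3p and 0.10 for miR-320-3p, against 0.15 each as reported. For miR-210-5p and miR-320-5p the SEs were 0.14 and 0.17, against 0.13 and 0.18 as reported. With slide as a fixed term, as in slide 2 alone, miR-210-5p became 0.043, miR-320-3p -0.22 and miR-320-5p 0.15. Without slide 3, miR-210-5p became 0.034, and without scaling, miR-320-3p became -0.11. Leaving out each array in turn gave -0.083 to 0.091 for miR-210-3p, the highest without Control 5, -0.16 to -0.04 for miR-210-5p, 0.04 to 0.17 for miR-320-3p and -0.27 to -0.06 for miR-320-5p. The list medians became -0.28 (hypoxia) and -0.17 (ischaemia) with slide as a fixed term and in slide 2, -0.11 (ischaemia) without scaling, and 0.0096 (hypoxia) and -0.034 (ischaemia) with quantile scaling. The median of all tested miRNAs was then -0.19, -0.16 and -0.047 in the same order. Leaving out each array gave 0.032 to 0.22 for hypoxia and 0.028 to 0.16 for ischaemia, lowest without Control 3 and highest without Control 5. The miR-210 arm contrast became -0.46 in slide 2 and -0.039 without slide 3, and ranged from -0.020 to 0.18 on leaving out each array. The miR-320 contrast became -0.38 in slide 2, 0.12 without slide 3 and 0.048 without background correction, and ranged from 0.17 without Control 3 to 0.42 without Control 5. The causes were not tested.

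Over all tested miRNAs limma made 0 adjusted calls under each alternative fitted with it, slide 2 alone had no test, and the methods' t-test made 0 adjusted calls and, unadjusted with 1.5-fold, 8. Unadjusted limma calls ranged from 7 without background correction to 36 without Control 5. Same-numbered arrays did not deviate together (correlations of -0.080 to 0.11), so the numbers were not taken as pairs. The replicate block left the 4 log2 differences at -0.01, -0.09, 0.10 and -0.20 (lowest adjusted p 0.674), the arm contrasts at 0.08 and 0.30 (exact sign-flip p 0.44 and 0.25), and gave 35 unadjusted calls against 15.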
